A study of Homo sapiens with 6 samples.

Results

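The small nuclear RNAs (snRNAs) of the major and minor spliceosomes and of the U7 particle were followed in RNA-seq libraries of SH-SY5Y, a human neuroblastoma cell line. Members were taken by name. Every row of the deposited table whose gene name begins with RNU, or is RNVU1 with a hyphen and a number, was kept unless the name ends in a number and the P of a pseudogene. This gave 51 of 61860 genes, of which 49 belong to a U type: 6 U1 genes of 1 identical sequence, 24 U1 variants, 1 U2, 2 U4, 5 U5, 6 U6, and 1 each of U7, U11, U12, U4atac and U6atac. The other 2, RNU105B and RNU105C, are small nucleolar RNA genes by their deposited description and were put in no U type. Oligonol is made from the polyphenols of lychee fruit, and the question was what it does to RNA in cells that resist insulin. The IR+Oligonol group (3 libraries) had been made insulin resistant (IR) with insulin at 100 nM and D-glucose at 30 mM for 24 h and given Oligonol at 500 ng/mL for 24 h. The IR control group (3 libraries) had the same insulin and glucose without Oligonol. Cells of both groups had been differentiated with all-trans retinoic acid in medium with little serum, and any cells in which resistance had not been induced were not analysed here. The libraries were made from total RNA. Nothing in the labels says whether the 3 libraries of a group came from separate cultures, so the p-values speak of the spread among these libraries, which could be technical.

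The major spliceosome removes most introns. Its U1 particle pairs with the start of the intron and U2 with the branch point, after which U4, U6 and U5 join as a tri-snRNP, U4 leaves, and U6 with U2 forms the catalytic core. The minor spliceosome removes a small class of introns with U11 and U12 in place of U1 and U2, U4atac and U6atac in place of U4 and U6, and the same U5. U7 belongs to no spliceosome: it pairs with histone pre-mRNA, which ends in a stem-loop and not in a poly(A) tail. U6 and U6atac are made by RNA polymerase III and held by LSM proteins. The others are made by RNA polymerase II and cut by the Integrator complex. They are then exported, given a ring wholly or mostly of Sm proteins by the SMN complex and returned to the nucleus.

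The sequences of 5 snRNAs, from GENCODE release 29 (GRCh38), are shown because the results below turn on these RNAs or because identical sequences limit what can be told apart. Capitals mark the bases that pair with the 5′ splice site in RNU1-1, those that pair with the branch point in RNU2-1 and RNU12, the Sm protein site in RNU11, and the stretch that pairs with histone pre-mRNA in RNU7-1.
RNU1-1: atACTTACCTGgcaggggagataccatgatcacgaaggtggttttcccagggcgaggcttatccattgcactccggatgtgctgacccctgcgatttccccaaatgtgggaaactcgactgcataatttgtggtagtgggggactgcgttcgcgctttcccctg
RNU2-1: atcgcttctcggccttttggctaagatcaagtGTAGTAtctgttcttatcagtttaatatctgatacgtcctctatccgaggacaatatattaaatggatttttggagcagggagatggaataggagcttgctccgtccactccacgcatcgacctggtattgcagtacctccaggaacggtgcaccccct
RNU11: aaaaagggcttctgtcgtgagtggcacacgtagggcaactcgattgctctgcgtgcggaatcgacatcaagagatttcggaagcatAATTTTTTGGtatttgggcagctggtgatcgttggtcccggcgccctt
RNU12: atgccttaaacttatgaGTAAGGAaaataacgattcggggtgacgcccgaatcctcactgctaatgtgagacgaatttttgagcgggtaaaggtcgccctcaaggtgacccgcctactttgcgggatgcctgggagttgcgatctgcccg
RNU7-1: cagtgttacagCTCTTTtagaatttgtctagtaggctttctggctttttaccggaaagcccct

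RNU1-1 lies at chr1:16514122-16514285 on the minus strand and RNU2-1 at chr17:43233787-43233977 on the minus strand, inside an intron of CCDC200. RNU11 lies at chr1:28648600-28648733 on the plus strand and RNU12 at chr22:42615244-42615393 on the plus strand. RNU7-1 lies at chr12:6943816-6943878 on the plus strand, overlapping an exon of C12orf57 on the same strand in all but its first base.

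Several of these genes cannot be told apart by their reads. RNU1-1, RNU1-2, RNU1-3, RNU1-4, RNVU1-18 and RNVU1-29 share 1 sequence and are listed with the same value in every library, as are 3 rows outside the name rule. RNU2-1 shares its sequence and values with 10 rows on chromosome 17 that are named only U2. RNU6-1, RNU6-2 and RNU6-9 are identical and share their values with 4 rows named as pseudogenes, and RNU6-7 and RNU6-8 are identical to each other. The levels of such copies are therefore sums over each U type, and a single copy is only an equal portion of its sum. Positions below are counted from 1 at the 5′ end of the RNA, and each change gives first the base of the sequence that follows the word from. RNVU1-7 differs from RNU1-1 by T150C, RNVU1-28 by G37T and RNVU1-31 by A49T and C116T. Of 23 variant U1 genes with an annotated sequence, 10 kept bases 3 to 11 of RNU1-1, the capitals above.

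Estimated counts summed to between 19457923 and 20912945 in the IR+Oligonol libraries and between 22738203 and 32209583 in the IR control libraries. RN7SL1, RN7SL2, RN7SK, RPPH1 and RMRP, abundant non-coding RNAs, held 58.2 to 64.4% of counts in IR+Oligonol libraries and 72.4 to 76.9% in IR control libraries. Protein-coding genes held 10.0 to 12.3% in IR+Oligonol libraries and 6.24 to 6.83% in IR control libraries. Scaling by the trimmed mean of M-values (TMM), the scale of all levels below unless another is named, used factors of 1.23 to 1.94 for IR+Oligonol libraries and 0.532 to 0.739 for IR control libraries. All 10 noradrenergic neuroblast markers were above 0 in every library, with TH at too low a level to be tested. Their summed level was 144 to 190 CPM (counts scaled to a common library size) in IR+Oligonol libraries and 214 to 253 CPM in IR control libraries. The 11 markers of mesenchymal, glial, myeloid and epithelial cells summed to 22.5 to 23.4 CPM in IR+Oligonol libraries and 28.6 to 33.4 CPM in IR control libraries, and AQP4 was at 0 in all but 1 IR control library. Of these, TWIST1 and KRT18 made up most of the sum, and KRT18 fell (log2 fold change -0.99, adjusted p = 0.00920). Of the 9 neuroblast markers tested, GATA2 fell (-0.70, adjusted p = 0.03935) and 0 rose. STMN2 lay above every control library (0.49, adjusted p = 0.0934) and 4 markers lay below. With each library's trend over transcript GC content removed, neither KRT18 (adjusted p = 0.0775) nor GATA2 (adjusted p = 0.236) passed. The median of the 9 then moved from -0.35 to 0.29. Whether markers play a part in the snRNA results was not tested.

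The deposited values behave as abundances per length. The fitted fragment length was 156 to 160 nt, longer than U4, U5, U6, U11, U12, U4atac and U6atac. How well RNAs shorter than a fragment were recovered was not tested, so different U types cannot be ranked as amounts in the cells. The deposited values do not show reads directly. The worth of 1 read was taken from a curve over length, fitted to the most often repeated low value at lengths that had one. For a 164 nt RNA such as U1, 1 read was worth 9.10 to 11.5 estimated counts in IR+Oligonol libraries and 6.43 to 6.90 in IR control libraries. For an RNA of 107 nt such as U6 it was worth 22.6 to 28.8 in IR+Oligonol libraries and 16.4 to 16.6 in IR control libraries. That is 52.6 to 56.0 times the worth of a read on an RNA of 1000 nt in IR+Oligonol libraries and 52.1 to 53.0 times in IR control libraries. On that scale U1 rested on 49800, 110000 and 63900 reads in IR+Oligonol libraries, against 121000, 117000 and 120000 in IR control libraries. U4atac, the scarcest U type with any reads, rested on 59.9, 38.4 and 53.9 reads in IR+Oligonol libraries, against 33.8, 50.9 and 54.9 in IR control libraries. These read equivalents are fitted, and 79.8 to 84.7% of low values lay within 0.1 of a whole read.

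On the TMM scale, U2, U4, U5 and U11 fell in the IR+Oligonol libraries, with log2 fold changes over the IR control libraries between -1.36 and -1.12. U1, variant U1, U6, U12, U4atac and U6atac did not pass the test, with log2 fold changes between -0.98 and -0.21. U7 was listed at 0 throughout. Of the 41 members with enough estimated counts to be tested, 12 fell (edgeR, quasi-likelihood, adjusted p under 0.05). Of all 16574 tested genes, 23.0% fell. Since 1 read of a short RNA was worth many estimated counts, the variance that edgeR assumes is approximate for the members. The filter also passed rows that rest on few reads, such as RNVU1-4. The same test called 0 members higher, where 26.0% of all tested genes were higher. At an unadjusted p under 0.05, 1 member was higher, RNVU1-4, which DESeq2 and limma-voom also called. The median log2 fold change was -0.98 over the 41 tested members and 0.15 over all tested genes. Because identical copies repeat 1 value, the 41 members hold 33 distinct sets of values, of which 11 were called lower. All 3 IR+Oligonol libraries lay below all 3 controls for 21 members (15 distinct sets), against 28.9% of all tested genes. Only RNVU1-4 lay above, against 33.9% of all tested genes. In these bulk samples, fewer cells of a type and less RNA per cell cannot be told apart.

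**Figure D1:**
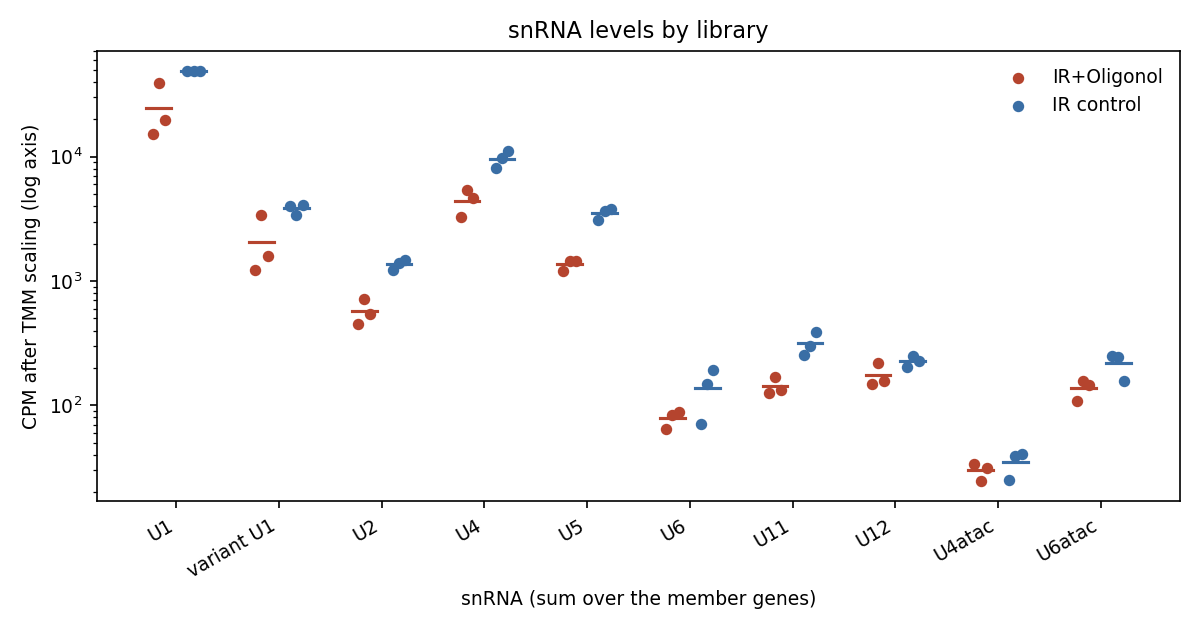
Level of each U type in every library, in CPM after TMM scaling on a log axis, summed over the member genes. Points are libraries (3 per group), short lines are group means, IR+Oligonol in red stands left of IR control in blue. U1, U2, U4, U5 and U11 do not overlap between groups, U12 and U4atac do, and U1 spans 15260 to 38900 CPM in IR+Oligonol libraries.

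The libraries counted in decided how many members passed. Leaving out Oligonol library 2, whose composition lay nearest to the controls, 21 members were lower, with 24.1% of all genes tested then lower. Leaving out Oligonol library 1, Oligonol library 3 or control library 2 left 2 members called in each case, RNU5A-1 and RNU5B-1. Those fits called 4.21, 2.85 and 3.88% of all genes lower, so 2 of 41 or 42 members is near the background. Without control library 1 the count was 14, beside 15.1% of all genes. Without control library 3 edgeR called 0 members lower, beside 0.996% of all genes. At an unadjusted p under 0.05 by edgeR, 12 of 42 members were lower in that fit. The share of all genes at the unadjusted threshold was not taken, so the 12 have no background to stand against. With no filter on low counts 3 of 47 members were lower, where 3.81% of all genes were lower and 7.05% higher.

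The direction depended on the scale. Scaled by library totals alone, edgeR called 0 members lower and 7 higher, where 0.223% and 68.1% of all tested genes were. The 7 were RNU12, RNU4ATAC, RNVU1-4, RNVU1-15, RNVU1-25, RNVU1-26 and RNVU1-27. At an unadjusted p under 0.05 by edgeR, 0 members were lower and 11 higher, with no share of all genes taken. Library totals moved the median log2 fold change of all tested genes to 1.53, from 0.15 under TMM. Relative to that median gene, U5 stood at -1.50 on both scales, U2 at -1.41 under TMM and -1.44 by library totals, and U11 at -1.29 on both. U12 stood at -0.52 and -0.55 on the same basis, and U4atac at -0.36 and -0.29. The snRNAs were thus low relative to the median gene, but taking that gene away also removes the scaling between libraries. The near match of the 2 scales was therefore fixed in advance and does not show that the falls hold on both. None of the 10 shares of all counts lay below every control library.

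All members together held 4.22, 6.21 and 4.92% of estimated counts in IR+Oligonol libraries, against 4.84, 4.13 and 3.71% in IR control libraries, with overlapping groups (exact 2-sided permutation p = 0.2). U4 held 0.634, 0.659 and 0.795% in IR+Oligonol libraries, against 0.593, 0.594 and 0.586% in IR control libraries. U12 held 0.0287, 0.0268 and 0.0272% in IR+Oligonol libraries, against 0.0149, 0.0152 and 0.0120% in IR control libraries. The shares of U4, U6, U11, U12, U4atac and U6atac lay above those of every IR control library, each with p = 0.1 by the exact permutation test, beyond which 3 against 3 libraries cannot go (adjusted p = 0.183 over 11 shares). The shares of U1, variant U1, U2 and U5 overlapped between groups.

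**Figure D2:**
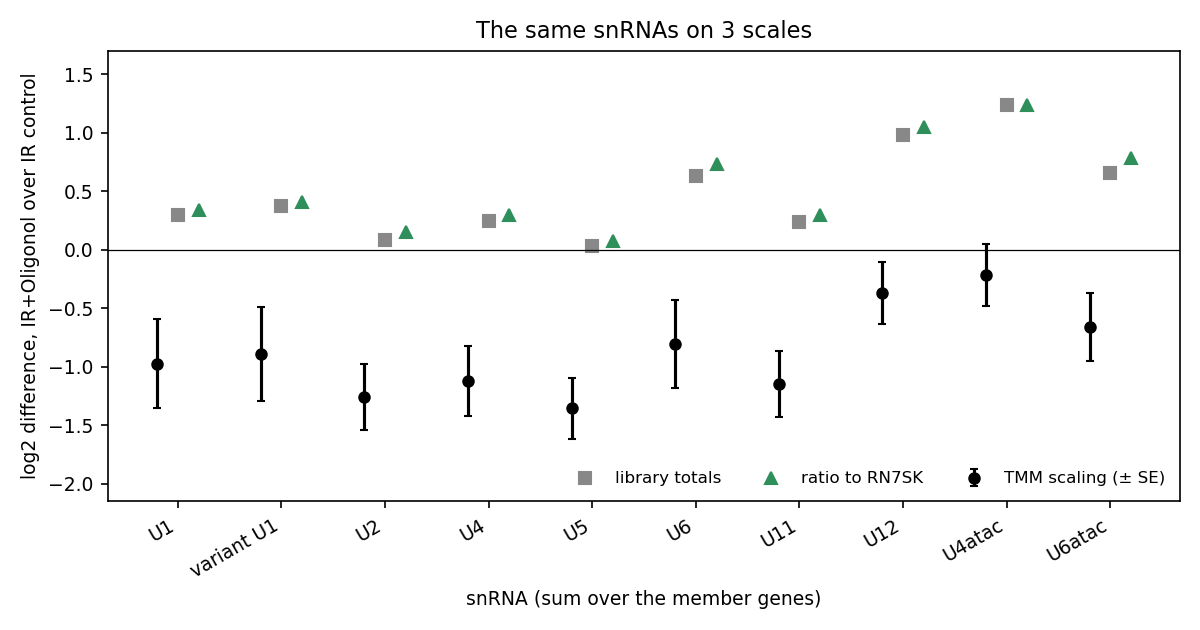
Log2 difference of each U type, IR+Oligonol over IR control, on 3 scales. Grey squares are the edgeR fit on library totals, green triangles are the mean difference of the ratio to RN7SK within a library, and black circles are the edgeR fit with TMM scaling and its standard error (SE). The TMM values lie below 0 for all 10 U types and the other scales above 0, and U12 and U4atac are the highest of the 10 on the library-total and RN7SK scales.

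U1 is the most abundant of these RNAs in the table. The 6 identical U1 genes summed to 15260, 38900 and 19750 CPM in IR+Oligonol libraries, against 48360, 48500 and 48500 CPM in IR control libraries. The groups did not overlap, and Oligonol library 2 stood nearest to the controls, which were nearly equal to each other. The fitted log2 fold change was -0.98 ± 0.38 (SE, adjusted p = 0.0627). Without Oligonol library 2 it was -1.66 (adjusted p = 0.00437). With all libraries kept, U1 passed under DESeq2 (adjusted p = 0.0143) and limma-voom (adjusted p = 0.0488). It also passed by edgeR with at least 10 counts in all libraries (adjusted p = 0.0476) or with a replicate block (adjusted p = 0.0444). It did not pass in the other fits of all libraries. Whether U1 passes thus depends on the fit as well as on that library. With the 3 identical rows outside the name rule added, U1 averaged 36950 ± 18810 CPM in IR+Oligonol libraries and 72660 ± 138 CPM in IR control libraries (SD, n = 3 each), with the same fold change.

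Variant U1 genes carry substitutions in the U1 sequence, and 17 of the 24 had enough estimated counts to be tested. RNVU1-7, RNVU1-28 and RNVU1-31, which differ from RNU1-1 by 1 or 2 bases, made up most of the variant sum. A read that misses those bases cannot be assigned, so their split from U1 is uncertain. RNVU1-7 was at 750, 2354 and 947 CPM in IR+Oligonol libraries, against 2595, 1962 and 2628 CPM in IR control libraries, with Oligonol library 2 inside the control range (log2 fold change -0.83, adjusted p = 0.156). RNVU1-28 was at 385, 840 and 532 CPM in IR+Oligonol libraries, against 1242, 1220 and 1200 CPM in IR control libraries, and fell (-1.06 ± 0.33, adjusted p = 0.0311). RNVU1-31 was at 36.9, 93.3 and 50.4 CPM in IR+Oligonol libraries, against 112, 128 and 115 CPM in IR control libraries (-0.97, adjusted p = 0.0541). As portions of all U1 and variant U1 counts, these 3 variants overlapped between groups. RNVU1-7 took 4.54, 5.57 and 4.43% in IR+Oligonol libraries and 4.95, 3.78 and 5.00% in IR control libraries (exact permutation p = 0.6). The variants lay low in the libraries in which U1 lay low, Oligonol libraries 1 and 3.

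The remaining tested variants were scarce. RNVU1-8 fell (-1.02, adjusted p = 0.0345) at 3.55, 5.05 and 2.71 CPM in IR+Oligonol libraries, against 6.44, 5.37 and 11.1 CPM in IR control libraries. It had no annotated sequence, so no read equivalents could be given. Its estimated counts were 133, 130 and 94.4 in IR+Oligonol libraries, against 108, 82.8 and 189 in IR control libraries, so the call may rest on few reads. RNVU1-15, RNVU1-25 and RNVU1-26 averaged 21.6, 13.6 and 14.4 CPM in IR+Oligonol libraries, against 33.8, 12.5 and 12.6 CPM in IR control libraries, without passing. RNVU1-14, RNVU1-27, RNVU1-30 and RNVU1-34 averaged 3.24 to 6.38 CPM in IR+Oligonol libraries and 4.09 to 9.57 CPM in IR control libraries, all with overlapping groups. RNVU1-4, the variant above the controls in every IR+Oligonol library, was listed at 3.00, 2.97 and 3.03 read equivalents there, against 1.01, 0 and 0.994 in IR control libraries (1.76 ± 0.69, adjusted p = 0.0722). RNVU1-1, RNVU1-6, RNVU1-21, RNVU1-22 and RNVU1-23 rested on at most 17.7 read equivalents in a library. The 10 members that were not tested had at most 47.5 estimated counts in a library. RNVU1-2, RNVU1-17, RNVU1-19, RNVU1-32, RNVU1-33 and RNU105B were above 0 in at least 1 library, and RNVU1-3, RNVU1-24, RNU105C and RNU7-1 were listed at 0 in all 6.

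U2, which pairs with the branch point, fell. The row RNU2-1 was at 449.9, 722 and 542 CPM in IR+Oligonol libraries, against 1230, 1393 and 1478 CPM in IR control libraries (log2 fold change -1.26 ± 0.28, adjusted p = 0.0116 as a U type). The highest IR+Oligonol library was well below the lowest control. Leaving out Oligonol library 1, Oligonol library 3, control library 2 or control library 3 ended the call, with adjusted p between 0.0553 and 0.0628. Over all 11 rows of that sequence, U2 averaged 6280 ± 1518 CPM in IR+Oligonol libraries and 15030 ± 1392 CPM in IR control libraries (SD, n = 3 each). RNU2-2P carries a pseudogene name and so falls outside the rule, and it differs from RNU2-1 by 8 substitutions, G108A, C109A, A110T, G111A, C170T, C187T, C189T and T191C. It was at 3227, 4701 and 3795 CPM in IR+Oligonol libraries, against 6866, 7635 and 7288 CPM in IR control libraries, and fell (-0.89 ± 0.28, adjusted p = 0.0270). Its log2 ratio to all RNU2-1 copies, added after the values were seen, averaged -0.67 ± 0.07 in IR+Oligonol libraries and -1.05 ± 0.10 in IR control libraries (SD, n = 3 each), without overlap (exact permutation p = 0.1, adjusted p = 0.233 over 7 added ratios).

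U4, the partner that keeps U6 inactive until the spliceosome is activated, fell to 3294, 5360 and 4606 CPM in IR+Oligonol libraries, against 8040, 9731 and 11040 CPM in IR control libraries (-1.12 ± 0.30, adjusted p = 0.0183). RNU4-2 supplied most of it, at 2723, 4479 and 3817 CPM in IR+Oligonol libraries, against 6737, 8173 and 9372 CPM in IR control libraries (-1.14, adjusted p = 0.0181). RNU4-1 was at 573, 879.9 and 789 CPM in IR+Oligonol libraries, against 1304, 1556 and 1666 CPM in IR control libraries (-1.01, adjusted p = 0.0208). The call on the U4 sum was lost without Oligonol library 1, Oligonol library 3, control library 2 or control library 3 (adjusted p between 0.0723 and 0.0799). RNU4-2 differs from RNU4-1 by C37T, G88A, C99A and C113T. RNU4-1 took 17.4, 16.4 and 17.1% of U4 in IR+Oligonol libraries, against 16.2, 16.0 and 15.1% in IR control libraries, a measure added after the values were seen. The groups did not overlap, with a difference of 1.21 percentage points beside SDs of 0.503 in IR+Oligonol libraries and 0.596 in IR control libraries (exact permutation p = 0.1, adjusted p = 0.3 over 9 portions).

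U5, which holds the exons in both spliceosomes, had the lowest log2 fold change of the 10 U types. It was at 1214, 1456 and 1460 CPM in IR+Oligonol libraries, against 3115, 3652 and 3802 CPM in IR control libraries (-1.36 ± 0.26, adjusted p = 0.00853). Within each group the libraries lay close together, and the groups were far apart. U5 was the 1 U type still called without Oligonol library 1 (adjusted p = 0.0436) or Oligonol library 3 (adjusted p = 0.0489), and it lost its call without control library 2 (adjusted p = 0.0503) or control library 3 (adjusted p = 0.0508). RNU5A-1 was at 427, 525 and 558 CPM in IR+Oligonol libraries, against 1198, 1559 and 1570 CPM in IR control libraries (-1.52 ± 0.27, adjusted p = 0.00781). RNU5B-1 was at 525, 606 and 627 CPM in IR+Oligonol libraries, against 1332, 1500 and 1571 CPM in IR control libraries (-1.33 ± 0.25, adjusted p = 0.00854). RNU5E-1 was at 204, 244 and 224 CPM in IR+Oligonol libraries, against 473, 482 and 494 CPM in IR control libraries (-1.11 ± 0.24, adjusted p = 0.0105). RNU5D-1 fell to 57.8, 80.01 and 51.9 CPM in IR+Oligonol libraries, against 112.5, 109 and 160.0 CPM in IR control libraries (-1.01, adjusted p = 0.0230). RNU5F-1 rested on 1 read equivalent in each IR+Oligonol library, and on 0.995, 0.998 and 6.95 in the IR control libraries (-1.91, adjusted p = 0.126).

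The make-up of U5 was compared as well, a measure added after the values were seen. RNU5A-1 took 35.2, 36.1 and 38.2% of U5 in IR+Oligonol libraries, against 38.5, 42.7 and 41.3% in IR control libraries. RNU5E-1 took 16.8, 16.7 and 15.3% in IR+Oligonol libraries, against 15.2, 13.2 and 12.99% in IR control libraries. In both cases the groups did not overlap (exact permutation p = 0.1 each, adjusted p = 0.3 over 9 such portions). RNU5B-1 took 42.6 ± 0.828% in IR+Oligonol libraries and 41.7 ± 0.893% in IR control libraries (SD, n = 3 each), with overlap.

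U6, the catalytic RNA, was at 65.2, 83.8 and 88.1 CPM in IR+Oligonol libraries, against 71.5, 149 and 193 CPM in IR control libraries (-0.80 ± 0.38, adjusted p = 0.108). Control library 1 lay among the IR+Oligonol libraries, and without it the log2 fold change was -1.23 (adjusted p = 0.0336). RNU6-7 and RNU6-8 were each at 7.83, 12.99 and 13.95 CPM in IR+Oligonol libraries and 17.6, 24.5 and 45.4 CPM in IR control libraries (-1.33, adjusted p = 0.0248). RNU6-1, RNU6-2 and RNU6-9 were each at 15.2, 18.7 and 17.8 CPM in IR+Oligonol libraries, against 10.0, 33.1 and 34.2 CPM in IR control libraries (-0.58, adjusted p = 0.287). RNU6-7 differs from RNU6-1 by T107G alone, the last base. A read that misses that base cannot be assigned, so the split of U6 among these rows is uncertain. RNU6-7 and RNU6-8 each rested on 10.2, 14.8 and 16.9 read equivalents in IR+Oligonol libraries, against 17.8, 23.1 and 46.8 in IR control libraries. RNU6V averaged 4.25 ± 2.60 CPM in IR+Oligonol libraries and 2.41 ± 3.27 CPM in IR control libraries (SD, n = 3 each). The whole U6 sum rested on 84.7 to 106 read equivalents in IR+Oligonol libraries and 72.1 to 200 in IR control libraries, which limits its precision.

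Of the 4 RNAs of the minor spliceosome, U11 passed the test and the others did not. U11, which takes the place of U1, fell to 126, 169 and 134 CPM in IR+Oligonol libraries, against 256, 302 and 391 CPM in IR control libraries (-1.15 ± 0.28, adjusted p = 0.0140). U12, which takes the place of U2, was at 149, 218 and 157 CPM in IR+Oligonol libraries, against 202, 249 and 226 CPM in IR control libraries, with Oligonol library 2 inside the control range (-0.37 ± 0.26, adjusted p = 0.270). U4atac was at 33.8, 24.7 and 31.5 CPM in IR+Oligonol libraries, against 25.2, 38.9 and 40.4 CPM in IR control libraries, with overlapping groups (-0.21 ± 0.27, adjusted p = 0.527). U6atac was at 108, 158 and 146 CPM in IR+Oligonol libraries, against 252, 243 and 158 CPM in IR control libraries (-0.66 ± 0.29, adjusted p = 0.0939). U11 lost its call without Oligonol library 1, Oligonol library 3, control library 2 or control library 3 (adjusted p between 0.0611 and 0.0712). Without Oligonol library 2 both U12 (-0.75, adjusted p = 0.0233) and U6atac (-0.96, adjusted p = 0.0363) passed.

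Ratios within a library do not depend on how libraries are scaled to each other. U11 and U12 form 1 particle in cells. Their log2 ratio was -0.25, -0.37 and -0.24 in IR+Oligonol libraries, against 0.34, 0.28 and 0.79 in IR control libraries. The difference was -0.75, larger than the spread within either group (exact 2-sided permutation p = 0.1, adjusted p = 0.243 over 17 ratios), and lay between -0.85 and -0.59 with each library left out in turn. An annotated long RNA of 664 nt begins at the same base as RNU12 on the same strand, so its reads and those of U12 may be split. It held 52.0, 95.2 and 87.0 read equivalents in IR+Oligonol libraries, against 111, 158 and 176 in IR control libraries. With all of them added to U12, the log2 ratio of U11 to U12 was -0.43, -0.62 and -0.51 in IR+Oligonol libraries, against -0.010, -0.13 and 0.31 in IR control libraries. The difference was then -0.58, still without overlap (exact permutation p = 0.1), and which of the pair was higher turned in 2 of the 3 IR control libraries. A further annotated RNA, of 131 nt, starts at the same base as RNU11 and was listed at 0 in 5 libraries and at 0.05 estimated counts in the sixth.

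RN7SK, the RNA of a transcription regulator, served as a common denominator because RNA polymerase III makes it in the nucleus and it is abundant. It fell on the TMM scale, at 70460, 110100 and 75060 CPM in IR+Oligonol libraries, against 196700, 235000 and 246700 CPM in IR control libraries (log2 fold change -1.41 ± 0.30, adjusted p = 0.0105). The log2 ratio of U12 to RN7SK was -8.88, -8.98 and -8.90 in IR+Oligonol libraries, against -9.93, -9.88 and -10.09 in IR control libraries. That difference of 1.05 is a ratio 2.07 times as high (exact permutation p = 0.1), or 0.87 on the log2 scale with the reads of the overlapping RNA added. U4atac to RN7SK differed by 1.24 and U6atac to RN7SK by 0.78, and U4 and U2 to RN7SK by 0.29 and 0.15, all without overlap (exact permutation p = 0.1 each, adjusted p = 0.243). U5 to RN7SK differed by 0.075 with overlapping groups (exact permutation p = 0.7), as did U1 by 0.34 (p = 0.2 by the exact permutation test) and U11 by 0.29 (exact permutation p = 0.2).

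**Figure D3:**
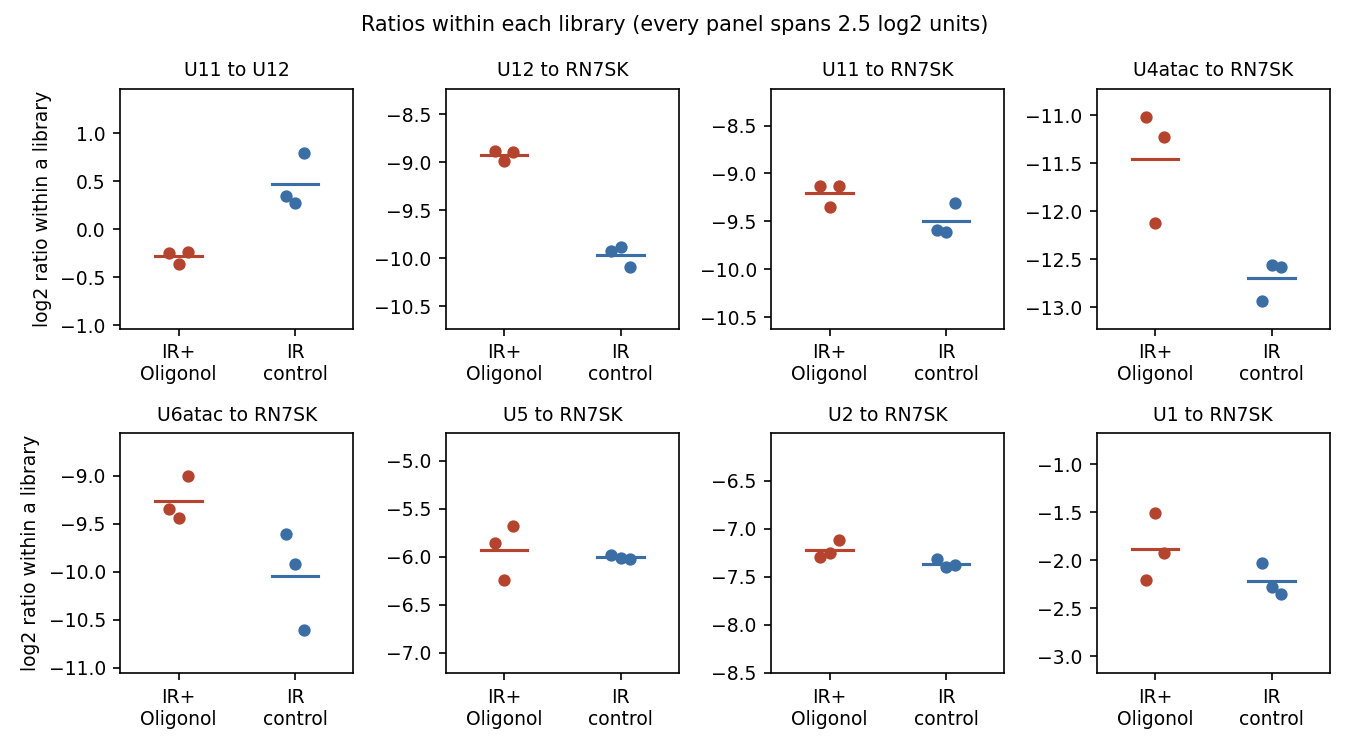
Log2 ratios of estimated counts within each library for 8 pairs of RNAs. Points are libraries, lines are group means, IR+Oligonol in red stands left of IR control in blue, and every panel spans the same range of log2 units. U12 and U4atac to RN7SK lie higher in all IR+Oligonol libraries and U11 to U12 lower, while U5 to RN7SK overlaps.

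Between major and minor counterparts, U4atac to U4 differed by 0.94 and U12 to U5 by 0.97, both added after the values were seen and both higher in all IR+Oligonol libraries (exact permutation p = 0.1 each, adjusted p = 0.233 over 7 added ratios). U6atac to U6 differed by 0.053 with overlapping groups (exact permutation p = 0.8). The sum of U11, U12, U4atac and U6atac over that of U1, U2, U4, U5 and U6, with U5 shared by both spliceosomes and variant U1 left out, gave log2 ratios of -5.61, -6.35 and -5.82 in IR+Oligonol libraries, against -6.37, -6.25 and -6.32 in IR control libraries, with Oligonol library 2 among the controls (exact permutation p = 0.3). U5 to U6 was lower in all IR+Oligonol libraries, at 4.22, 4.12 and 4.05 in IR+Oligonol libraries, against 5.45, 4.61 and 4.30 in IR control libraries (exact permutation p = 0.1). U1 to U2, U4 to U6, U4atac to U6atac and variant U1 to U1 overlapped between groups.

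U7, the RNA of histone mRNA processing, gave no value. RNU7-1 was listed at 0 in all 6 libraries, and its 63 nt are shorter than any RNA whose read worth could be fitted. Other rows whose transcripts are 63 nt long were read in part: of 62 such rows, 16, 7 and 14 were above 0 in IR+Oligonol libraries and 7, 8 and 5 in IR control libraries. Their smallest values above 0 were 36.0, 26.8 and 38.8 estimated counts in IR+Oligonol libraries, against 17.2, 21.3 and 19.3 in IR control libraries. RNU7-1 also overlaps that same-strand exon of C12orf57, which was listed at 1409, 2392 and 1817 estimated counts in IR+Oligonol libraries and 2013, 2463 and 2535 in IR control libraries. Whether U7 reads were counted there was not tested, so the 0 sets no limit on U7.

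Of 1779 rows named as pseudogenes of the same U types, 1772 were summed by type. The 7 left out were RNU2-2P, given above, and 6 rows with the sequence and values of U1 or U6. The sums had positive log2 fold changes in every fitted type except U5. Summed by U type and fitted beside the snRNAs, the U2, U4atac and U7 pseudogene rows rose, in a table where 27.0% of all rows tested were higher. U2 pseudogene rows were at 42.6, 41.8 and 53.1 CPM in IR+Oligonol libraries, against 21.0, 14.8 and 17.5 CPM in IR control libraries (1.36 ± 0.25, adjusted p = 0.00587). U7 pseudogene rows were at 96.9, 43.3 and 103 CPM in IR+Oligonol libraries, against 18.5, 28.5 and 18.6 CPM in IR control libraries (1.89 ± 0.38, adjusted p = 0.00715). U4atac pseudogene rows were at 13.9, 5.44 and 12.5 CPM in IR+Oligonol libraries, against 1.49, 4.07 and 1.52 CPM in IR control libraries (2.18 ± 0.54, adjusted p = 0.0182). In estimated counts that is 520, 140 and 434 in IR+Oligonol libraries, against 25.4, 62.6 and 25.9 in IR control libraries. For an RNA of 127 nt 1 read was worth 16.6 to 21.1 and 11.8 to 12.6 in these groups, so that call may rest on few reads. These sums came from few rows: 48 of 69 U2, 66 of 148 U7 and 4 of 17 U4atac pseudogene rows were above 0 in any library. In each of these the lowest IR+Oligonol library was library 2. U6 pseudogene rows gave the largest of these sums, at 628, 325 and 681 CPM in IR+Oligonol libraries, against 420, 207 and 228 CPM in IR control libraries. They did not pass the test (0.93, adjusted p = 0.0776). They lay above the U6 members in every library. Over all copies of its sequence, though, U6 was at 281 and 330 CPM in control libraries 2 and 3, above these pseudogene rows. U5 pseudogene rows were the 1 sum with a negative value, at 31.7, 24.6 and 47.5 CPM in IR+Oligonol libraries, against 57.8, 58.3 and 60.2 CPM in IR control libraries (-0.76, adjusted p = 0.0527). Adding pseudogene rows to U6 turned its log2 fold change to 0.40, so a level of U6 in these data depends on which rows are counted.

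**Figure D4:**
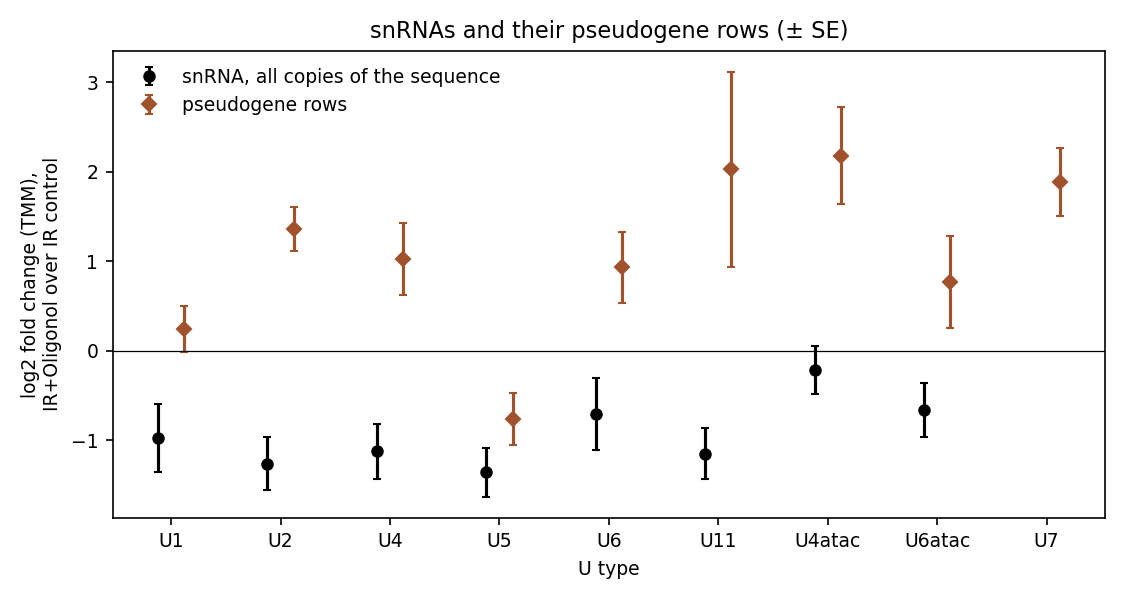
Log2 fold change on the TMM scale with its SE, IR+Oligonol over IR control, for each U type summed over all rows of the snRNA sequence (black circles) and for the rows named as its pseudogenes (brown diamonds). U2, U4atac and U7 pseudogene rows passed the test above 0 while U2, U4, U5 and U11 themselves passed below 0, and U5 lies below 0 in both forms.

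The mRNAs of proteins that build or carry these RNAs were read from 10 lists, 124 of whose 125 genes were tested. Of these, 30 rose and 29 fell, near the 26.0% and 23.0% of all tested genes. By library totals 102 rose and 0 fell, so the falls given below hold on the TMM scale and not by library totals. The 3 U1-specific proteins passed the test below 0, but these calls ended with the GC trend removed, with no filter on low counts, and without Oligonol library 1, Oligonol library 3, control library 2 or control library 3. SNRNP70 was at 9.49, 17.7 and 11.2 CPM in IR+Oligonol libraries, against 21.3, 24.8 and 30.1 CPM in IR control libraries (-0.99 ± 0.29, adjusted p = 0.0235), SNRPA had a log2 fold change of -0.91 (adjusted p = 0.0169) and SNRPC -0.96. Of 12 U2 proteins 3 rose and 2 fell: SF3B1, which holds the branch point, averaged 14.6 ± 1.46 CPM in IR+Oligonol libraries and 5.83 ± 1.26 CPM in IR control libraries (SD, n = 3 each, log2 fold change 1.33, adjusted p = 0.00722), SNRPA1 rose (1.30, adjusted p = 0.00993) and SF3B5 fell (-1.38, adjusted p = 0.0151). Of the 8 Sm proteins, SNRPD1 rose (0.82, adjusted p = 0.0160) and SNRPB fell (-1.28, adjusted p = 0.0174). Sm proteins sit on every spliceosomal U type here except U6 and U6atac, and the list's median was 0.063.

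Of 14 genes for U6 and its LSM ring, 5 fell, among them TUT1, which adds uridines to U6 (-1.12, adjusted p = 0.00724), LSM7 (-1.15, adjusted p = 0.0162) and LSM4 (-1.32). Of 16 U5 and tri-snRNP proteins 6 fell and 1 rose, with CD2BP2 at 6.01, 10.8 and 6.28 CPM in IR+Oligonol libraries, against 16.0, 22.2 and 21.5 CPM in IR control libraries (-1.38, adjusted p = 0.00993), and SNRNP40 at 0.80 (adjusted p = 0.0123). Of 10 tested minor spliceosome proteins, ZMAT5 (-1.14, adjusted p = 0.0101) and SCNM1 (-1.02, adjusted p = 0.0129) fell, and RNPC3, which joins U11 and U12, rose (0.97, adjusted p = 0.0395). RNPC3 was at 2.30, 1.13 and 1.33 CPM in IR+Oligonol libraries, against 0.954, 0.776 and 0.701 CPM in IR control libraries. SNRNP48 had too few counts to be tested.

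Among genes for making and carrying snRNAs, rises and falls stood side by side. Of 13 transcription factors and activators 6 rose and 3 fell, with ICE2, part of the complex that helps transcribe snRNA genes, at 3.55, 2.14 and 2.91 CPM in IR+Oligonol libraries, against 0.954, 0.647 and 0.526 CPM in IR control libraries (2.01 ± 0.30, adjusted p = 0.00629). POU2F1, a factor that binds snRNA promoters, rose (1.13, adjusted p = 0.00761) and BRF2, of the U6 promoter, fell (-0.94, adjusted p = 0.0229). Of 15 Integrator subunits 6 rose and 3 fell: INTS7 (1.84, adjusted p = 0.00844) and INTS2 (1.18) rose, and INTS11, the cutting subunit, fell (-1.25, adjusted p = 0.00833). Of 22 genes for SMN assembly, export, import, cap and trimming, 7 rose and 3 fell. XPO1, an export receptor, was at 11.4, 7.81 and 9.13 CPM in IR+Oligonol libraries, against 2.50, 3.62 and 3.10 CPM in IR control libraries (1.62 ± 0.22, adjusted p = 0.00620). NCBP1, of the cap-binding complex, rose (1.23, adjusted p = 0.00686), and TOE1, which trims snRNA ends, fell (-1.07, adjusted p = 0.00955). SMN1 was called higher but has a near-identical copy in SMN2, and its value is uncertain. Of 11 genes for U7 and histone mRNA ends, 5 rose, among them CPSF3, the nuclease (0.92, adjusted p = 0.00844), and NPAT, an activator of histone genes (1.38, adjusted p = 0.0132), and SYMPK fell (-0.55, adjusted p = 0.0394).

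**Figure D5:**
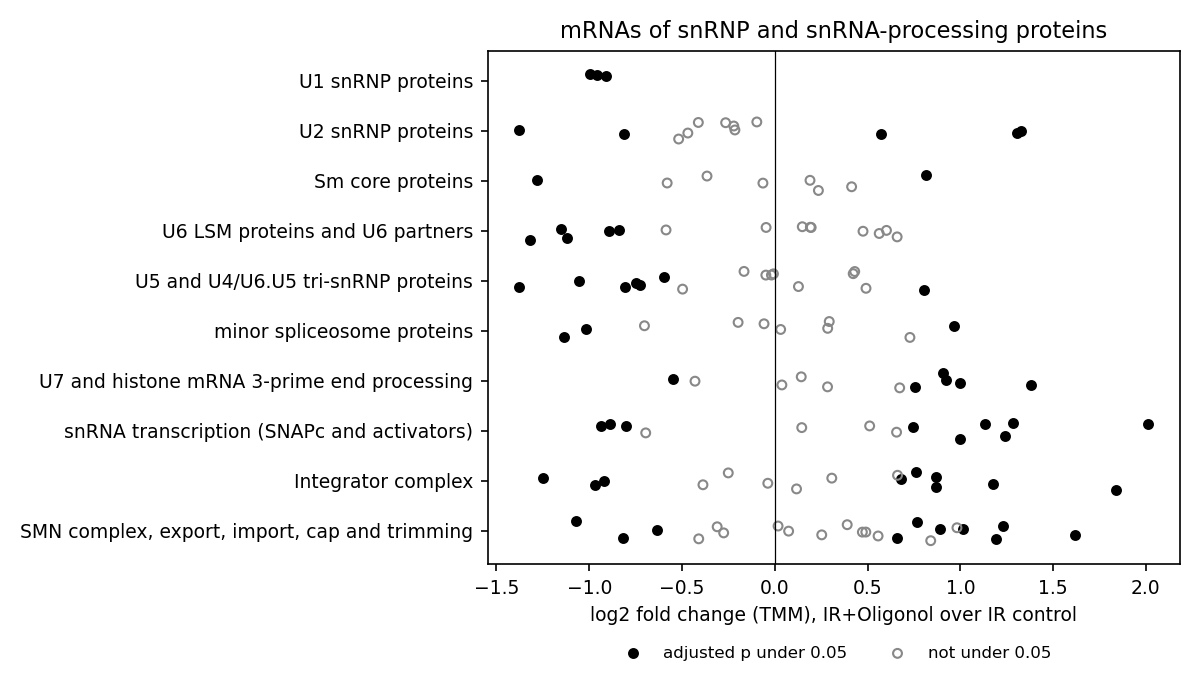
Log2 fold change on the TMM scale, IR+Oligonol over IR control, of each tested gene in 10 lists of snRNP and snRNA-processing proteins. Filled points have an adjusted p under 0.05 and open points do not. All 3 U1 proteins lie below 0, and the lists for transcription, Integrator and assembly hold rises and falls side by side.

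Transcript GC content differed between the named protein genes that fell and those that rose, and its part in the results was not tested beyond removing its trend. SNRNP70, SNRPA and LSM4, which fell, have a transcript GC of 62.3, 56.9 and 59.1%, and XPO1, SF3B1 and NPAT, which rose, 37.9, 40.1 and 39.8%. With each library's GC trend removed, 1 of the 124 protein genes was called higher, ICE2 (1.04, adjusted p = 0.0488), and 3 lower, where 2.89% and 2.56% of all genes were. Those 3, SNRPB2, SF3B6 and ZCRB1, had not passed before (adjusted p = 0.309, 0.514 and 0.859), so none of the 29 falls kept its call. SNRNP70 then stood at -0.077 and SNRPA at -0.29. On the same footing 8 of 40 members were lower: RNU11, RNU2-1, RNU4-1, RNU4-2 and the U5 genes RNU5A-1, RNU5B-1, RNU5D-1 and RNU5E-1. Their log2 fold changes were then -2.43 to -1.09, and the median of the 40 members was -1.11 against 0.033 over all genes. The trend was fitted on protein-coding genes, most of them far longer than snRNAs. Leaving out single libraries moved the protein counts as well as those of all genes. Without Oligonol library 1, 10 of 124 were higher and 3 lower, beside 9.47% and 4.21% of all genes. Without Oligonol library 3 these were 8 and 3 of 124, beside 7.83% and 2.85%. Without control library 2 they were 12 and 3 of 125 (8.65% and 3.88% of all genes), and without control library 3 they were 5 and 1 of 125 (2.90% and 0.996%). Without Oligonol library 2 they were 22 and 41 of 125 (22.4% and 24.1%), and without control library 1 they were 13 and 27 of 125 (15.5% and 15.1%).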

How the data were processed

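The 6 libraries were prepared from 2 ug of total RNA with a kit that keeps strand, and sequencing was paired-end at 100 nt (per the labels' protocols). FastQC, kallisto 0.46.1, edgeR and GRCh38.p13 are named without a role in the submitters' processing notes. The authors deposited, per gene and library, an estimated count and a scaled signal. The 2 differ by 1 constant factor per library (spread at most 0.0071%), so the deposited signal was not used further. They were not whole (99.0 to 99.1% of values above 0) and behave as abundances per length. The unmapped value columns numbered 0. Of the identifiers 58308 matched GENCODE release 29.

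Estimated counts were rounded, filtered with filterByExpr and tested with edgeR 4.0.16 (quasi-likelihood, robust, TMM, group as the only term, 2-sided, Benjamini-Hochberg over all 16574 genes, threshold 0.05) in R 4.3.3. Adjusted p-values are from that fit unless a test is named. U type sums replaced the member rows in a second fit of 16543 rows, and all copies and pseudogene rows were summed in another. Errors beside fold changes are the SE implied by the test. The variance of the count model is approximate for short RNAs, whose estimated counts are many times their reads. Shares and ratios were compared with exact 2-sided permutation tests in scipy 1.17.1. Read equivalents divide a value by the worth of 1 read at its length. That worth is read from a curve over length, fitted to the most often repeated low values. The GC trend was a natural spline with 5 degrees of freedom per library, entered as an offset. Alternatives were other scalings, DESeq2 1.42.0, limma-voom (limma 3.58.1), other filters, a replicate block, other denominators, pseudogene rows added and each library left out. Only the main edgeR fit was tested on simulated counts. Those counts did not have 1 read worth many counts, as holds for short RNAs. Named were all members and U types, and per protein list the 2 members of smallest p and the largest called rise and fall, with SNRPC and SMN1 added after their values were seen. Members and lists were chosen with earlier results of these data known.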

Additional observations from a re-analysis of the deposited data

How the results depend on the processing

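Values are log2 differences, IR+Oligonol over IR control, unless they are counts. All directions of the fold changes rest on TMM or a like scaling. With library totals alone, edgeR called 11293 genes higher and 37 lower, and 7 snRNA members higher and 0 lower. The signs then turned for all 10 fitted U types: U1 (0.30), variant U1 (0.37), U2 (0.087), U4 (0.24), U5 (0.029), U6 (0.63), U11 (0.24), U12 (0.98), U4atac (1.24) and U6atac (0.66). Single members are listed only where they passed by edgeR under TMM or by library totals. Among those the same reversal held for RNU11 (0.24), RNU12 (0.98), RNU2-1 (0.087), RNU4-1 (0.35), RNU4-2 (0.22), RNU4ATAC (1.24), RNU5B-1 (0.061), RNU5D-1 (0.36) and RNU5E-1 (0.26). It held also for RNU6-7 and RNU6-8 (0.089 each), RNVU1-8 (0.36), RNVU1-15 (0.68), RNVU1-27 (1.14) and RNVU1-28 (0.23). The identical U1 genes and RNU6ATAC passed on neither scale and are not listed, though U1 and U6atac turned. The factors themselves, 1.23 to 1.94 for IR+Oligonol libraries and 0.532 to 0.739 for IR control libraries, show how far the scales differ. The cause was not tested.

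DESeq2 called 1 snRNA member higher and 21 lower (3144 and 3999 of all 16574 genes), and limma-voom 1 and 19 (4033 and 3971 genes). U1 passed under DESeq2 (-1.04), limma-voom (-1.09) and with a minimum of 10 counts demanded of each library (-0.75). DESeq2 also passed variant U1 (-0.95), U6 (-0.88) and U6atac (-0.73). With no filter on low counts 1603 genes (3.81%) and 3 of 47 members were lower, and U2 (-1.25), U4 (-1.12), U5 (-1.36) and U11 (-1.15) no longer passed. With the GC trend removed, 468 genes were higher and 414 lower. The labels do not say whether the replicate numbers pair the samples. Correlations of same-numbered libraries, as deviations from their group means, were 0.0870, -0.0087 and -0.147. Those of libraries with unlike numbers lay between -0.186 and 0.191. With so few libraries these values cannot show whether the samples were paired. With the replicate block 3560 genes were higher, 3470 (20.9%) lower and 18 members lower, and U1 passed at -1.10.

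Leaving out 1 library at a time gave 582 to 4576 genes higher and 200 to 4916 lower, and 0 members higher and 0 to 21 lower. The fold changes ranged from -1.66 to -0.71 for U1, -1.63 to -0.61 for variant U1, -1.66 to -1.10 for U2, -1.48 to -0.93 for U4 and -1.59 to -1.26 for U5. They ranged from -1.23 to -0.57 for U6, -1.48 to -1.05 for U11, -0.75 to -0.25 for U12, -0.52 to -0.19 for U4atac and -0.96 to -0.50 for U6atac. An arm with 2 libraries was taken to vary like the other.

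Shares depended on the denominator. Against counts without the 5 abundant RNAs they stood at -0.36 for U1, -0.29 for variant U1, -0.55 for U2, -0.41 for U4, -0.63 for U5, 0.029 for U6, -0.41 for U11, 0.34 for U12, 0.53 for U4atac, 0.081 for U6atac and -0.37 for all members. Against protein-coding counts they stood at -0.51 for U1, -0.44 for variant U1, -0.70 for U2, -0.55 for U4, -0.77 for U5, -0.12 for U6, -0.55 for U11, 0.20 for U12, 0.39 for U4atac, -0.063 for U6atac and -0.52 for all members. Adding pseudogene rows moved the share of U2 to 0.22 and of U6 to 1.72. It moved the log2 ratio of U4 to U6 to -1.49, U5 to U6 to -1.70, U2 to RN7SK to 0.29 and U6 to RN7SK to 1.79. With the reads of the long RNA that overlaps RNU12 added, an alternative chosen after seeing the data, U12 to RN7SK was 0.87. U7 could not be fitted, since its only member was at 0 in every library. Counting error limits U4atac, U6 and the scarce variants most.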
